A study of Homo sapiens with 12 samples.

Results

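The sine oculis homeobox and EYA factors were 7 of the 58735 genes listed in the count table, namely SIX2, SIX4, SIX5, EYA1, EYA2, EYA3 and EYA4, found by their gene symbols. The family was chosen by the difference in SIX2 counts between the control-hairpin libraries of the 2 fusion lines, which was among the largest of all genes, so the values of SIX2 in that contrast are a description and not a finding. All 7 genes were measured in all 12 libraries and passed the filter on low counts, set at an average of 5 counts per library.

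Sine oculis homeobox proteins are homeodomain transcription factors that bind DNA, and EYA proteins are co-activators that lack a DNA-binding domain of their own and are recruited to them. EYA proteins also carry a phosphatase domain. With PAX factors upstream and the DACH and TLE cofactors as partners, they form a network known from the development of eye, ear, kidney and skeletal muscle, and several members are expressed again in tumours. In the kidney SIX2 maintains the nephron progenitors, and in muscle precursors SIX4 acts with EYA1 and EYA2 upstream of the myogenic factors.

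RNA was measured in SW872, an established human liposarcoma cell line. All libraries came from pooled cells that stably expressed one of 2 retrovirally delivered fusion proteins, TAZ-CAMTA1 (TC) or YAP-TFE3 (YT), together with a short hairpin RNA. The hairpin was non-targeting (shNT) or directed against YEATS2 (shYEATS2) or ZZZ3 (shZZZ3), which encode subunits of the ATAC histone acetyltransferase complex, and each of the 6 groups (TC shNT, TC shYEATS2, TC shZZZ3, YT shNT, YT shYEATS2, YT shZZZ3) held 2 libraries. The comparisons ask how the transcriptomes of the fusion lines depend on these subunits; cells without a fusion were not analysed here. For its RNA-seq the study harvested lines with CAMTA1 before confluence and other lines at confluence, so line and density may not be told apart, and whether this held for the hairpin libraries was not given in the sources used here. Only 1 hairpin label per target was given, so effects of the target and of the particular hairpin cannot be told apart.

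Libraries held 17451893 to 29294805 counts. The replicates of a group differed by more than sampling noise in every group, most in TC shNT and YT shZZZ3. Chi-square per gene was 119.2 and 108.8 there, against 59.91 in TC shYEATS2 and 11.76 in TC shZZZ3, the lowest. The base composition of what was sequenced also differed between libraries: the GC trend, the mean log2 deviation of the GC-richest quartile of genes minus that of the GC-poorest quartile, ran from -0.66 (YT shZZZ3 replicate 2) to 0.73 (TC shNT replicate 1), and TC shNT replicate 2 was at -0.56. The knock-downs were seen in YEATS2, which fell from 113 and 123 CPM (counts scaled to library size) to 45.5 and 35.1 CPM in the TC line and from 115 and 117 CPM to 33.9 and 38.5 CPM in the YT line. ZZZ3 was at 25.6 and 60.4 CPM in TC shNT and at 21.9 and 22.7 CPM in TC shZZZ3, a difference that did not pass the test, and at 71.2 and 49.1 CPM in YT shNT and 12.6 and 29.6 CPM in YT shZZZ3 (edgeR adjusted p = 0.0453, lost without YT shNT replicate 1 at 0.296, without YT shNT replicate 2 at 0.117, without YT shZZZ3 replicate 1 at 0.225, with library totals at 0.0864 and with the contrast groups only at 0.0540). The fall of YEATS2 in TC lost its call with the contrast groups only (edgeR adjusted p = 0.150). Of the markers of the labelled cell type, PPARG (36.8 to 109 CPM) and LPL (73.3 to 286 CPM) were present, whereas LEP was at 0 in all libraries and ADIPOQ and FABP4 reached at most 0.0516 and 0.296 CPM. In endothelial markers 1 library stood apart from its replicate. TC shYEATS2 replicate 2 had 133 CPM of KDR, 91.4 CPM of CDH5 and 17.1 CPM of PECAM1. These endothelial markers were at 12.8, 27.6 and 4.90 CPM in replicate 1. The sum of 4 endothelial markers was 245 CPM in replicate 2 and was also high in both YT shZZZ3 libraries, at 139 and 137 CPM.

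The promoters of SIX2 and EYA4 are shown because these were the members whose levels ranged most widely over the libraries, 17.9-fold and 10.9-fold from the lowest to the highest. Each window holds the 250 bases before the RefSeq start and the 50 from it on on GRCh38.p14, 5′ to 3′ on the strand of the gene. The SIX2 window is chr2:45009403-45009702 (minus strand) and the EYA4 window is chr6:133241107-133241406 (plus strand). GENCODE places the genes at chr2:45005182-45009452 and chr6:133240514-133532128. Capitals mark a match to one of 3 motifs searched on both strands: GGAATG, the core bound by TEAD factors, CACGTG, the E-box bound by TFE3 and its relatives, and TCAGGTTTC, a MEF3 site of the kind bound by SIX4.
SIX2 promoter: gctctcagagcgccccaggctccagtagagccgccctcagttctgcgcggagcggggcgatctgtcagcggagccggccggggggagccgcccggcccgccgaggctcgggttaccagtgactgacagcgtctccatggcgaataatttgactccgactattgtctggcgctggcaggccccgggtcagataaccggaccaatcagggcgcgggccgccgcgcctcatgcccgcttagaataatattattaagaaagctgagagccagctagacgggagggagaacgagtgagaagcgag
EYA4 promoter: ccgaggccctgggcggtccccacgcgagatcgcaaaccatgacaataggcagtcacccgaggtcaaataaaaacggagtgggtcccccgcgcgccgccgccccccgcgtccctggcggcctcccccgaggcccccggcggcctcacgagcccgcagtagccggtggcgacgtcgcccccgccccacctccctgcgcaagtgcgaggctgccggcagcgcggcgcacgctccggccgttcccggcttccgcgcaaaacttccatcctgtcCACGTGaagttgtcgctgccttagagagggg
The SIX2 window held none of the 3 motifs and the EYA4 window held 1 E-box, beginning at base 20 counted from the start, in capitals above. Of all 35116 RefSeq promoters of this length, 7.26% held the E-box, 14% the TEAD core and 0.362% the MEF3 site, and the windows of SIX4 and EYA3, the other members searched, held none of the motifs. Both printed windows were rich in CpG, with 29 CpG dinucleotides in SIX2 and 39 in EYA4, against 25 in EYA3, 14 in SIX4 and a median of 14 over all promoters.

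Levels were compared between genes per kilobase of exon (CPM per kb). SIX5 and EYA3 were the most abundant members in all 6 groups. In TC shNT the order by mean was SIX5 at 14.9 ± 5.68 CPM per kb (SD, n = 2), EYA3 at 9.45 ± 0.209, EYA2 at 4.12 ± 1.72, SIX2 at 2.29 ± 1.04, SIX4 at 2.12 ± 0.708, EYA1 at 1.05 ± 0.373 and EYA4 at 0.139 ± 0.0568. EYA2 and SIX2 overlapped in that order, and so did SIX2 and SIX4. In YT shNT, SIX2 had the lowest level of all members, 0.212 ± 0.00484 CPM per kb, below EYA4 at 0.301 ± 0.0428. Among the 4 EYA genes, EYA3 made up 52.9% to 71.5% of the summed EYA level per kb in every library.

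**Figure D1:**
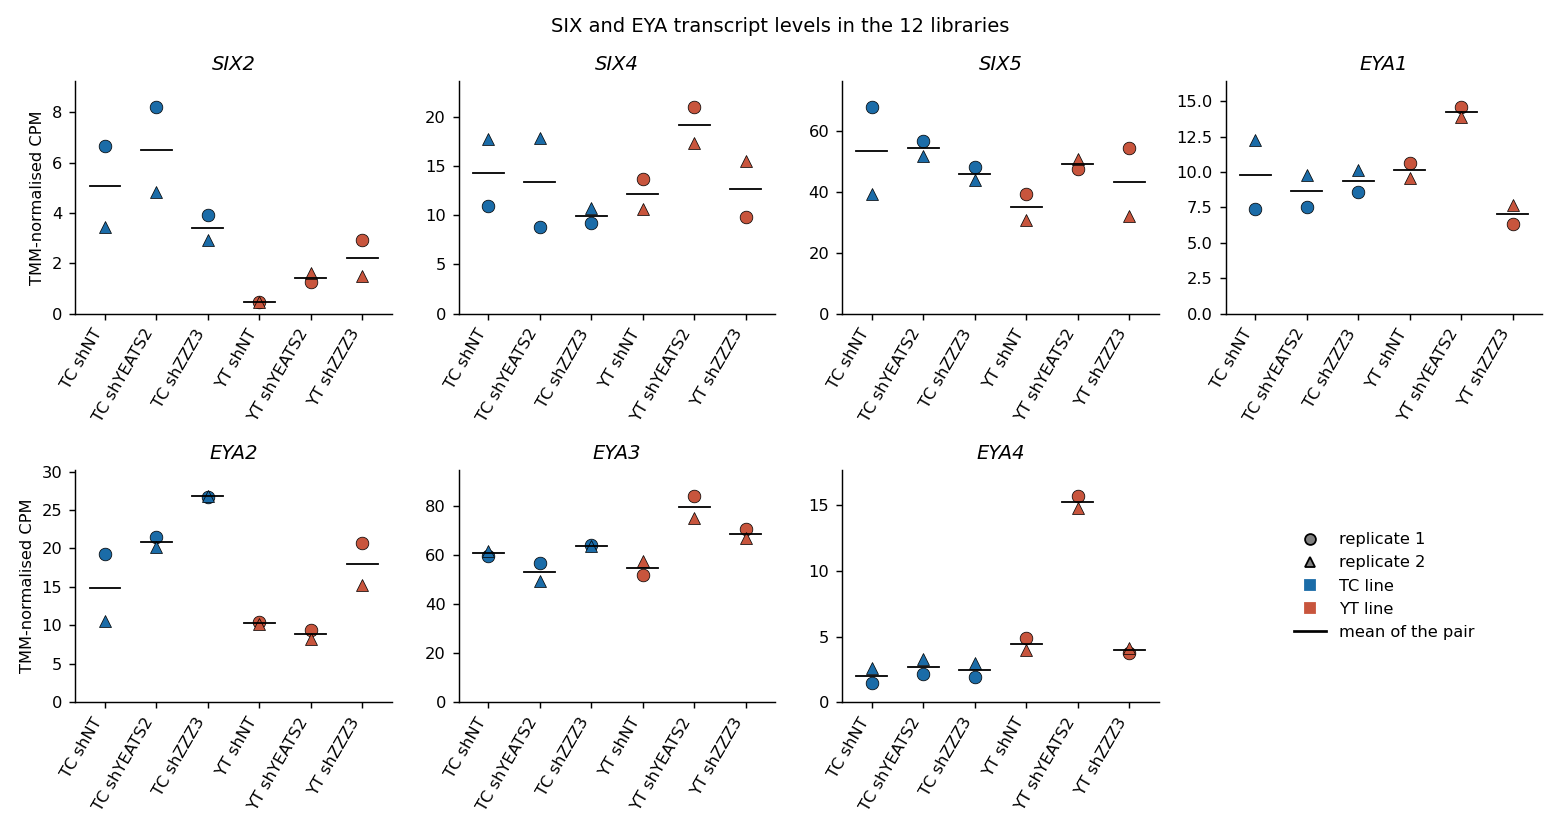
Levels of the 7 members as TMM-normalised CPM (y axis, from 0, scaled per gene) in the 6 groups (x axis); circles are replicate 1, triangles replicate 2, and bars the mean of the pair, with the TC line in blue and the YT line in red. SIX2 was higher in every TC library than in every YT library, and EYA4 was highest in the 2 YT shYEATS2 libraries, at 15.7 and 14.8 CPM.

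Beginning with the DNA-binding factors, SIX2 was at 6.68 and 3.44 CPM in TC shNT, 8.21 and 4.82 CPM in TC shYEATS2, and 3.90 and 2.94 CPM in TC shZZZ3. In the YT line it was at 0.475 and 0.460 CPM with shNT, 1.25 and 1.60 CPM with shYEATS2, and 2.91 and 1.48 CPM with shZZZ3. The 6 TC libraries all lay above the 6 YT libraries, although the lowest TC value, 2.94 CPM, nearly met the highest YT value, 2.91 CPM. These are few reads: the YT shNT libraries held 9 and 8 counts of SIX2, against 175 and 72 in TC shNT.

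In the contrast that chose it, SIX2 was 9.29-fold lower with YT than with TC (log2 fold change -3.21 ± 0.511 SE), rank 118 of 18415 genes by the size of the difference. Of all genes, 9.23% were called in that contrast, at an adjusted p under 0.05 in edgeR's quasi-likelihood test. SIX2 was the 1 member called, an outcome favoured by its choice in this same contrast and so not a finding. None of the other members passed the test. The log2 fold change of EYA4 was 1.10 ± 0.345 (edgeR adjusted p = 0.0656). That of SIX5, whose libraries overlapped between the lines, was -0.61 ± 0.290 (0.2245), and that of EYA2 was -0.54 ± 0.278 (0.263).

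The libraries with the other hairpins were not used to choose SIX2. With shYEATS2, SIX2 was again lower in the YT line, 4.4-fold (log2 fold change -2.14 ± 0.434, edgeR adjusted p = 0.00653). The difference lost its call without YT shYEATS2 replicate 1 (-1.98). Without TC shYEATS2 replicate 2, a library with high endothelial markers, it was -2.47. With shZZZ3 the pairs did not overlap either, but the difference was -0.62 ± 0.418 and did not pass the test (edgeR adjusted p = 0.644). With shYEATS2, 12.2% of all genes were called between the lines and 4 of the 7 members, 2 higher and 2 lower in YT; with shZZZ3, 2.62% of all genes and 0 members were called (no member had an unadjusted p under 0.05, and DESeq2 called 0).

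**Figure D2:**
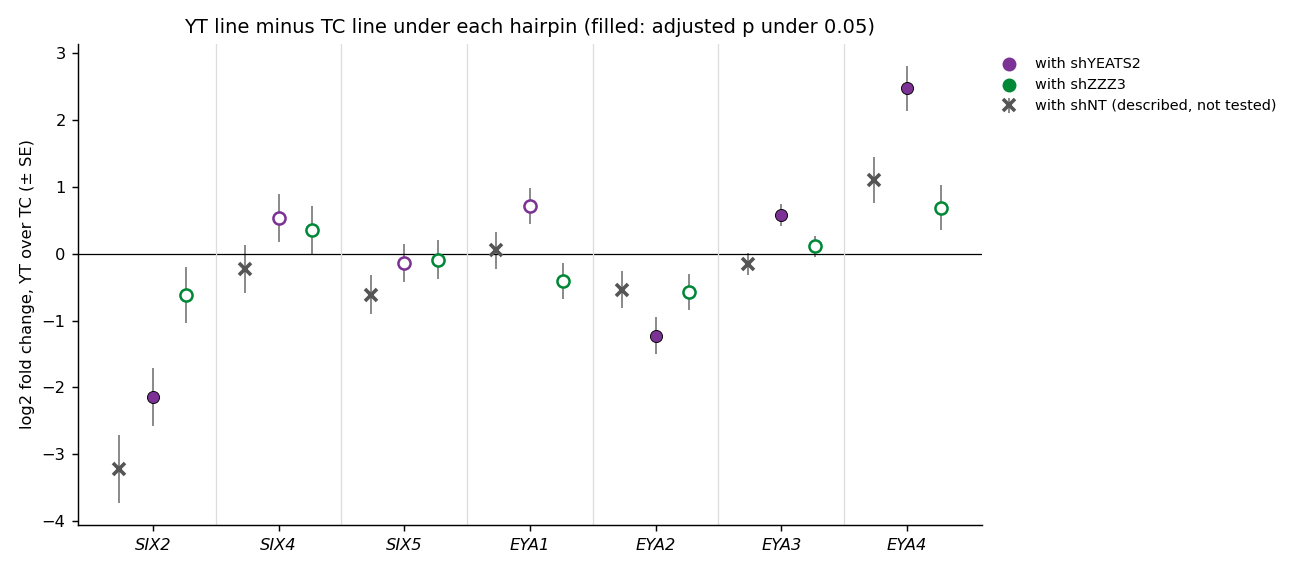
Log2 fold change of the YT line over the TC line (y axis) for each member (x axis) with shYEATS2 (purple) and shZZZ3 (green), bars showing the SE and filled points an adjusted p under 0.05; crosses give the shNT contrast that chose SIX2, as a description. SIX2 lay at -3.21, -2.14 and -0.62 under the 3 hairpins, and EYA4 at 1.10, 2.47 and 0.69.

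Knock-down of ZZZ3 in the YT line came with 4.13-fold more SIX2 than in YT shNT (log2 fold change 2.04 ± 0.526), and knock-down of YEATS2 with 2.71-fold more (1.44 ± 0.550). In the TC line the same differences were -0.55 ± 0.404 for shZZZ3 and 0.36 ± 0.393 for shYEATS2. All these contrasts reuse the shNT libraries that chose SIX2 for its low level in YT, so a value nearer to the TC level in the other YT libraries is no independent evidence, and they are given as descriptions. Between the hairpins themselves, which the choice did not use, SIX2 did not pass the test in either line: shYEATS2 minus shZZZ3 was 0.92 ± 0.402 in TC (edgeR adjusted p = 0.453) and -0.61 ± 0.444 in YT (0.463).

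Over the 12 libraries, SIX2 tracked the GC trend with a Pearson r of 0.59, as a description over libraries that share their groups, and its transcripts are 61.5% GC. With the GC trend removed the TC levels were 5.27 and 4.12 CPM in shNT, 7.22 and 4.92 CPM in shYEATS2 and 3.71 and 2.92 CPM in shZZZ3. The YT levels were 0.524 and 0.512 CPM, 1.28 and 1.48 CPM, and 2.54 and 1.82 CPM in the same order. The YT and TC libraries still did not overlap, and the shYEATS2 difference between the lines was -2.08 (edgeR adjusted p = 0.000352).

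SIX4, a factor of muscle precursors, differed little. It was at 10.95 and 17.7 CPM in TC shNT, 8.85 and 17.9 CPM in TC shYEATS2 and 9.18 and 10.7 CPM in TC shZZZ3. In YT it was at 13.7 and 10.6 CPM with shNT, 21.02 and 17.3 CPM with shYEATS2 and 9.79 and 15.6 CPM with shZZZ3. The replicates of TC shYEATS2 were 2-fold apart, and SIX4 was called in none of the 11 contrasts in this fit, although its higher level with shYEATS2 in YT was called with GC offsets (0.84, edgeR adjusted p = 0.0318) and with these 4 libraries fitted alone (0.65, 0.00637). Its largest difference was 0.76 ± 0.510, the extent to which the shYEATS2 effect was higher in YT than in TC (edgeR adjusted p = 0.399).

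SIX5, the most abundant of the homeobox members and the neighbour of the myotonic dystrophy kinase gene DMPK, was at 67.9 and 39.1 CPM in TC shNT, 56.7 and 51.9 CPM in TC shYEATS2, and 48.0 and 43.9 CPM in TC shZZZ3. The YT values were 39.3 and 30.6 CPM, 47.6 and 50.9 CPM, and 54.3 and 32.2 CPM for shNT, shYEATS2 and shZZZ3. Its libraries followed the GC trend more closely than those of any other member (Pearson r = 0.89 over 12 libraries; transcript GC 68.0%), and the pairs that were far apart, TC shNT and YT shZZZ3, were the pairs whose GC trends were far apart. With the trend removed, TC shNT was at 47.6 and 46.8 CPM and all 12 libraries lay between 36.5 and 54.3 CPM. SIX5 was called in none of the 11 contrasts in this fit. Its higher level with shYEATS2 in YT was called when these 4 libraries were fitted alone (0.49, edgeR adjusted p = 0.00989) and with block and GC offsets (0.35, 0.0373), and its lower level in YT shNT than in TC shNT when TC shNT replicate 2 was left out (-0.98, 0.0263).

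**Figure D3:**
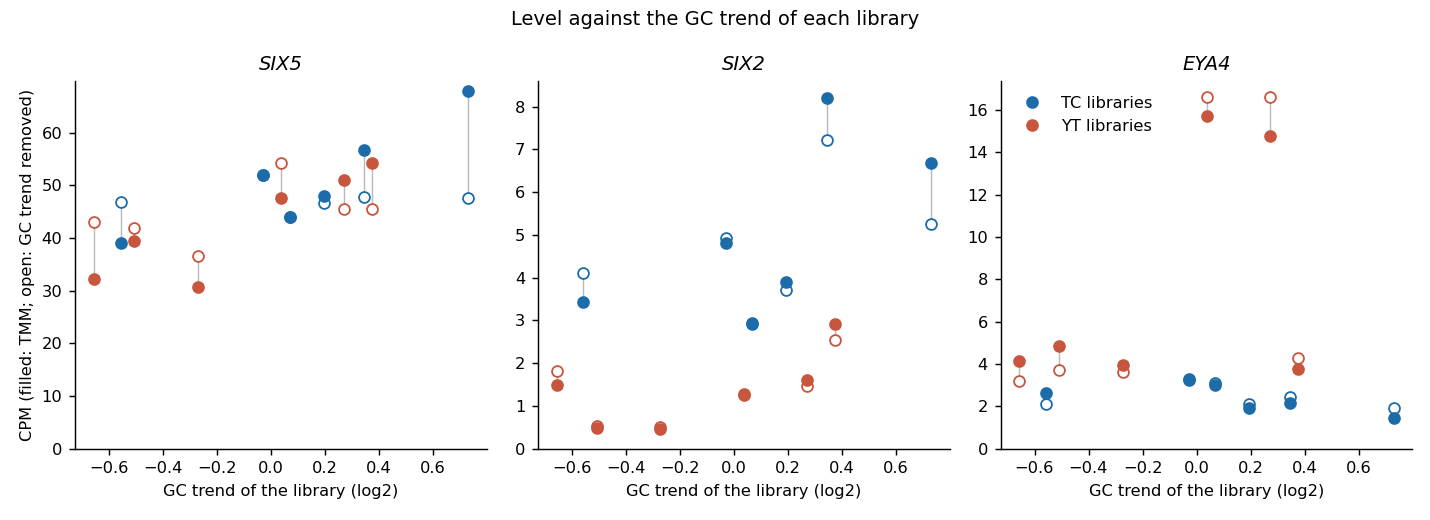
CPM of SIX5, SIX2 and EYA4 (y axes, from 0) against the GC trend of each library (x axis, log2); filled points are TMM-normalised, open points have the trend removed, and a line joins both values of a library. SIX5 rose with the trend (r = 0.89) and lay between 36.5 and 54.3 CPM once it was removed, whereas the YT shYEATS2 libraries remained highest for EYA4 at 16.6 CPM each.

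Among the co-activators, EYA4, known for its part in hearing and heart muscle, showed the largest differences that did not rest on the choice of SIX2. It was at 1.45 and 2.63 CPM in TC shNT, 2.15 and 3.26 CPM in TC shYEATS2 and 1.91 and 2.99 CPM in TC shZZZ3. In YT it was at 4.86 and 3.97 CPM with shNT, 15.7 and 14.8 CPM with shYEATS2, and 3.78 and 4.14 CPM with shZZZ3. All YT libraries lay above all TC libraries, and the YT shYEATS2 pair lay far above the rest. With the GC trend removed the lines overlapped: YT shZZZ3 replicate 2, at 3.18 CPM, lay below TC shYEATS2 replicate 2, at 3.28 CPM. The YT shYEATS2 pair remained highest, at 16.6 CPM each.

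EYA4 was 3.40-fold higher in YT shYEATS2 than in YT shNT (log2 fold change 1.77 ± 0.327, edgeR adjusted p = 0.00313). Of all genes, 20.7% were called in this contrast and 2 of the 7 members, both higher. EYA4 was 3.79-fold higher in YT shYEATS2 than in YT shZZZ3 (1.92 ± 0.325, adjusted p = 0.00423), where 7.21% of all genes and 3 members were called, and 5.53-fold higher than in TC shYEATS2 (2.47 ± 0.337, adjusted p = 0.00063). These 3 calls held in every alternative fit and without any of the libraries in turn. In the TC line shYEATS2 changed EYA4 by 0.40 ± 0.349 (adjusted p = 1), in a contrast with 0.0434% of all genes and 0 members called (edgeR; none had an unadjusted p under 0.05, and DESeq2 called 0). The difference between the lines in the response to shYEATS2 was 1.37 ± 0.475 and did not pass the test (adjusted p = 0.0997), in a comparison in which 9.37% of all genes and 0 members were called (2 members had an unadjusted p under 0.05, DESeq2 called 1, and 4 were called with GC offsets). It was 1.76 without TC shNT replicate 1 (adjusted p = 0.0379) and 1.68 with GC offsets (0.00664).

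EYA4 is overlapped on the opposite strand by TARID, a long non-coding RNA, and which reads came from which strand cannot be told apart in the counts, as strand use in the counting was not given in the sources used here. TARID held 0 to 15 counts per library outside YT shYEATS2 and 48 and 46 counts there (1.998 and 2.37 CPM), against 4 and 2 counts in YT shNT. It rose with shYEATS2 in YT by 3.16 ± 0.643 on the log2 scale (edgeR adjusted p = 0.00219). TCF21, the nearest protein-coding gene downstream, was under the filter, with 0 CPM in both YT libraries with shNT and 0.666 and 1.45 CPM with shYEATS2. RPS12 lies on the other side, 422950 bases away. As a share of the summed EYA level per kb, EYA4 made up 0.636% to 1.53% in the TC libraries, and in YT 2.67% and 2.07% with shNT, 5.84% and 6.12% with shYEATS2 and 1.46% and 1.79% with shZZZ3.

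EYA3, the most abundant EYA gene, varied least of the members, from 49.4 to 84.3 CPM. The YT values were 51.9 and 57.5 CPM (shNT), 84.3 and 74.99 CPM (shYEATS2) and 70.6 and 66.99 CPM (shZZZ3). The TC values were 59.7 and 61.6 CPM with shNT, 57.0 and 49.4 CPM with shYEATS2, and 64.0 and 63.8 CPM with shZZZ3. With shYEATS2 it rose 1.46-fold in YT (log2 fold change 0.54 ± 0.165, edgeR adjusted p = 0.0372), and it was 1.496-fold higher in YT than in TC (0.58 ± 0.164, adjusted p = 0.0397). Both calls rested on all 4 libraries: without any of them, the adjusted p was 0.0884 to 0.229 for the hairpin and 0.0654 to 0.247 for the lines. With no filter on low counts they were lost too (0.114 and 0.143), and the one between the lines also with library totals (0.0581).

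EYA2, reported in several carcinomas, followed another pattern. It was at 19.3 and 10.5 CPM in TC shNT, 21.4 and 20.2 CPM in TC shYEATS2, and 26.7 and 26.9 CPM in TC shZZZ3. The YT line had 10.4 and 10.1 CPM with shNT, 9.41 and 8.26 CPM with shYEATS2 and 20.7 and 15.3 CPM with shZZZ3. The shZZZ3 pair was the highest in both lines, and the YT pair lay below the TC pair under each hairpin.

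With shYEATS2, EYA2 was 2.34-fold lower in YT than in TC (log2 fold change -1.23 ± 0.280, edgeR adjusted p = 0.0141), a call lost without TC shYEATS2 replicate 1 (0.0565), YT shYEATS2 replicate 1 (0.0863) or YT shYEATS2 replicate 2 (0.117). It was 2.03-fold lower in YT shYEATS2 than in YT shZZZ3 (-1.02 ± 0.279, adjusted p = 0.0480), a call lost without any of the 4 libraries (0.0506 to 0.271). The increase with shZZZ3 did not pass the test in either line. It was 0.84 ± 0.274 in TC (adjusted p = 0.220), where 1.53% of all genes and 0 members were called (edgeR; 1 member, EYA2, had an unadjusted p under 0.05, and DESeq2 called 0), and 0.81 ± 0.278 in YT (adjusted p = 0.0933), where 10% of all genes and 1 member, SIX2, were called. That SIX2 call reuses the shNT libraries that chose SIX2, so it is a description and not a finding. EYA2 shared the wide gap between the TC shNT replicates, 19.3 and 10.5 CPM. With GC offsets that pair was at 16.4 and 12.3 CPM, and the shZZZ3 differences were 0.83 in TC (adjusted p = 0.0152) and 0.70 in YT (0.0104).

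EYA1, the gene of branchio-oto-renal syndrome, was at 7.36 and 12.3 CPM in TC shNT, 7.54 and 9.79 CPM in TC shYEATS2, and 8.57 and 10.2 CPM in TC shZZZ3. In YT it was at 10.7 and 9.60 CPM with shNT, 14.6 and 13.9 CPM with shYEATS2 and 6.33 and 7.70 CPM with shZZZ3. The YT shYEATS2 pair was the highest and the YT shZZZ3 libraries were low. The difference between them was 2.02-fold (log2 1.01 ± 0.273, edgeR adjusted p = 0.0447), lost without any of the 4 libraries (0.0895 to 0.234) and with library totals in place of TMM (0.102). In the TC line the same hairpin contrast gave -0.11 ± 0.272, and 1.2% of all genes and 0 members were called there (edgeR; 1 member, SIX2, had an unadjusted p under 0.05, and DESeq2 called 0). With shYEATS2 in YT, EYA1 differed from shNT by 0.49 ± 0.271 and did not pass the test (edgeR adjusted p = 0.219). That difference was called with GC offsets (0.68, 0.011), with block and GC offsets (0.68, 0.00711) and with the contrast groups only (0.49, 0.0224). With shYEATS2, YT minus TC was 0.71 ± 0.271 (edgeR adjusted p = 0.114), and was called with GC offsets (0.71, 0.0111) and with block and GC offsets (0.71, 0.00683).

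**Figure D4:**
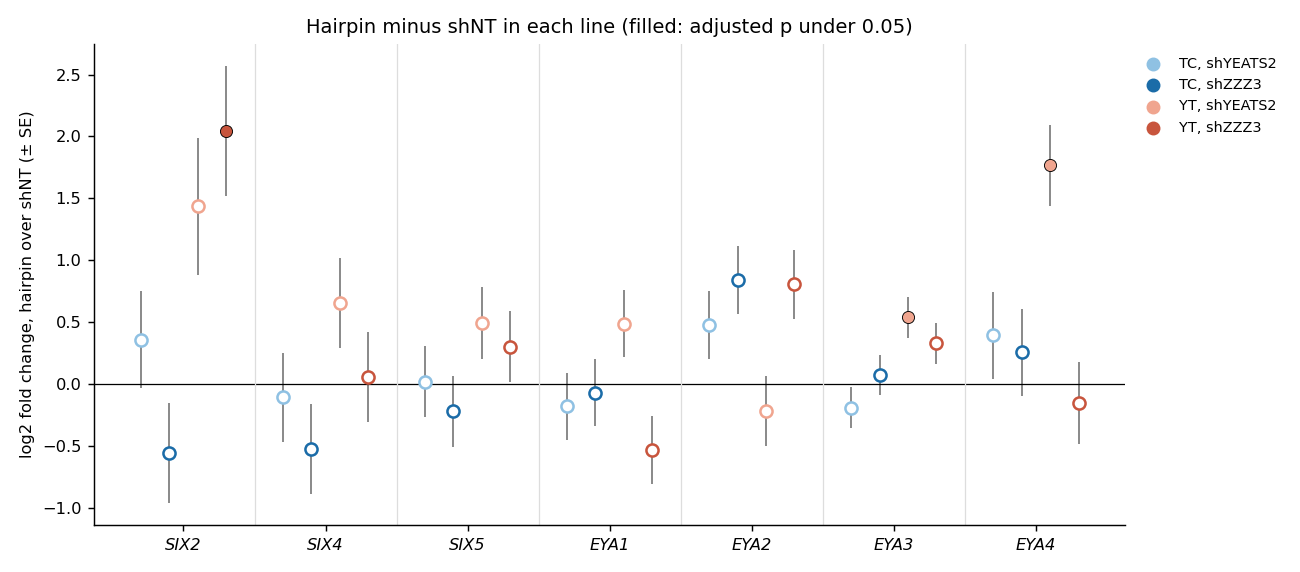
Log2 fold change of each hairpin over shNT (y axis, bars show the SE) for each member (x axis), with TC in blues and YT in reds, and filled points at an adjusted p under 0.05. EYA4 and EYA3 were called with shYEATS2 in YT, at 1.77 and 0.54; SIX2 with shZZZ3 in YT, at 2.04, rests on the shNT libraries that chose it, and no member was called in the TC line.

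The response to shZZZ3 differed between the lines in 4.32% of all genes and in 1 member, SIX2 (2.60 ± 0.667), whose shNT libraries were those that chose it. For the other 6 members this difference ran from -0.46 ± 0.386 (EYA1) to 0.58 ± 0.512 (SIX4), and none passed the test. Markers of other cell types moved in the same libraries: with shZZZ3 in YT, CDH5 was at 87.1 and 79.3 CPM against 21.6 and 21.9 CPM in YT shNT, and PECAM1 at 22.2 and 19.5 CPM against 2.06 and 2.70 CPM. The summed endothelial markers were at 139 and 137 CPM in YT shZZZ3, 40.5 and 42.3 CPM in YT shNT, 46.8 and 245 CPM in TC shYEATS2 and 31.7 to 74.4 CPM in the other groups. Of these 4 markers, 2 rose in that contrast, CDH5 losing its call without YT shNT replicate 1 (0.105) or YT shNT replicate 2 (0.103), and none was at 0 in any library. With shYEATS2 in YT, where EYA4 and EYA3 were called, the summed endothelial markers were at 33.6 and 31.7 CPM, and other markers moved. Of 6 mesenchymal markers 2 rose and 1 fell: VIM went from 709 and 696 to 1949 and 1948 CPM, THY1 from 15.4 and 15.2 to 42.6 and 39.6 CPM (lost without any of the 4 libraries, at 0.0880 to 0.125) and PDGFRB from 467 and 533 to 213 and 236 CPM (lost without YT shNT replicate 2 at 0.0654, YT shYEATS2 replicate 1 at 0.0837 or YT shYEATS2 replicate 2 at 0.0557). The muscle marker DES fell from 2.11 and 2.70 to 0.208 and 0.310 CPM (lost without YT shYEATS2 replicate 1 at 0.0663). The leukocyte marker CD14 rose from 0.739 and 0.748 to 3.87 and 4.13 CPM (lost without YT shNT replicate 1 at 0.0711 or YT shNT replicate 2 at 0.0625). With shZZZ3, 3 mesenchymal markers rose and 1 fell, VIM being at 2152 and 1470 CPM and FN1 at 2577 and 3522 CPM against 8337 and 10540 CPM in YT shNT (lost without YT shNT replicate 2 at 0.0590). The part of these markers in the values of SIX2 and the EYA genes was not tested.

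SIX3, the neighbour of SIX2 at 59111 bases on the opposite strand, had 0 counts in both YT shNT libraries and at most 15 elsewhere.

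**Figure D5:**
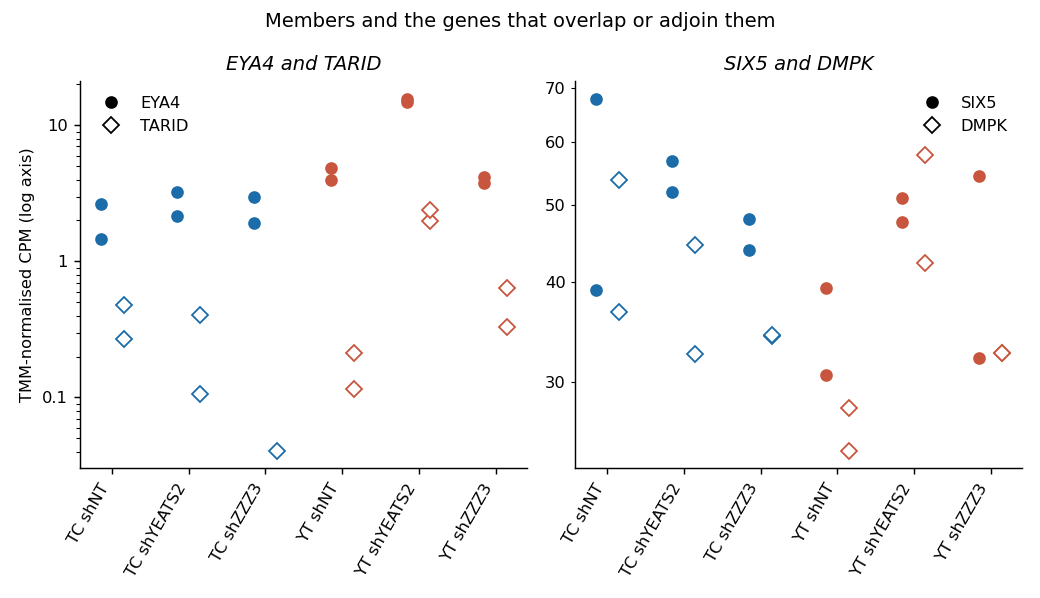
TMM-normalised CPM (log axis) of EYA4 and the antisense TARID, and of SIX5 and DMPK, in the 6 groups (x axis); filled circles are the member, open diamonds its neighbour, TC in blue and YT in red, and 1 TC shZZZ3 library at 0 for TARID is not drawn. TARID was at 1.998 and 2.37 CPM in YT shYEATS2, where EYA4 was at 15.7 and 14.8 CPM.

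DMPK ends 457 bases from SIX5 on the same strand and had 27.8 and 24.6 CPM with shNT in YT and 42.3 and 57.8 CPM with shYEATS2, a rise of 0.93 ± 0.242 on the log2 scale (edgeR adjusted p = 0.0197). The call was lost without YT shNT replicate 1 (0.0870), YT shNT replicate 2 (0.133) or YT shYEATS2 replicate 2 (0.169), and SIX5 differed by 0.49 ± 0.290 in the same contrast. SIX5 is also overlapped on the opposite strand by DM1-AS, at 0.518 to 2.22 CPM, which was called in no contrast, and by the non-coding gene ENSG00000259605. The latter was at 1.49 and 1.63 CPM in TC shNT and 0.422 and 0.518 CPM in YT shNT (8 and 9 counts), a difference of -1.56 ± 0.459 on the log2 scale (edgeR adjusted p = 0.0384, lost without any of the 4 libraries at 0.0567 to 0.233 and with GC offsets at 0.0966). Next to EYA2, SLC2A10, a glucose transporter gene 158277 bases away, was at 85.7 and 88.7 CPM in YT shNT and 52.7 and 51.5 CPM in YT shZZZ3, a fall opposite in sign to the EYA2 value (-0.74 ± 0.163, adjusted p = 0.0145; 0.0507 to 0.127 without any one library and 0.0742 with the contrast groups only). MSC, the musculin gene 249535 bases from EYA1, fell with shZZZ3 in YT from 23.4 and 27.4 CPM to 8.33 and 4.86 CPM (-1.93 ± 0.383, adjusted p = 0.00868; 0.0709 without YT shNT replicate 2).

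Of the 16 listed PAX, DACH, TLE and SOBP partners, 11 passed the filter. With shYEATS2 in YT, 5 rose and 3 fell, beside 20.7% of all genes called, with a median log2 fold change of 0.44 against -0.01 over all genes tested. SOBP, a nuclear protein related to the product of fly sine oculis-binding protein, rose from 11.2 and 9.09 CPM to 45.7 and 48.7 CPM (2.21 ± 0.201, edgeR adjusted p = 4.34e-05), and PAX9 from 2.75 and 2.30 CPM to 17.9 and 17.8 CPM (2.78 ± 0.328, adjusted p = 0.00019). PAX7, a factor of muscle stem cells, went from 33 and 19 counts to 0 in both libraries, at least 10.1-fold lower with a floor of 3 counts per library. DACH1, a corepressor of the network, had 0.634 and 0.690 CPM with shNT in YT and 0.125 and 0.0516 CPM with shYEATS2 (-2.06 ± 0.726, adjusted p = 0.0202, lost without any of the 4 libraries at 0.0769 to 0.130). With shZZZ3 in YT, 2 of the 11 rose and 0 fell, beside 10% of all genes called, SOBP by 1.04 ± 0.196 (0.00664, lost without YT shNT replicate 2 at 0.0920) and PAX9 by 1.27 ± 0.323 (0.0271, lost without any of the 4 libraries at 0.0559 to 0.194). In the TC line DACH1 was the 1 gene of the 11 called with shZZZ3, beside 1.53% of all genes, with 0 counts in both shNT libraries and 19 and 12 counts with shZZZ3, at least 5.48-fold higher with the same floor (the call was lost without any of the 4 libraries, at 0.0567 to 0.111).

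Genes known from kidney and muscle development were taken from lists of general knowledge. The lists are not limited to targets of the network, and whether a listed gene lies downstream of it was not tested. Of the 13 genes on the kidney list 8 passed the filter. With shYEATS2 in YT 0 of them rose and 3 fell (median -0.77), beside 20.7% of all genes called in that contrast. WT1, needed for nephron progenitors, fell from 33.0 and 34.6 CPM to 0.375 and 0.465 CPM (-6.07 ± 0.831, edgeR adjusted p = 0.000405), and to 2.66 and 3.30 CPM with shZZZ3 (-3.47 ± 0.666, 0.00731; 0.0512 without YT shZZZ3 replicate 1). SALL1 fell by 0.80 on the log2 scale with shYEATS2 (SE 0.199, adjusted p = 0.0154; 0.0790 to 0.1004 without any one library). WNT4 fell by 2.22 (SE 0.767, adjusted p = 0.0295; 0.0792 to 0.170 without any one library). WT1 was also at 43.2 and 5.93 CPM in the 2 TC shYEATS2 libraries, the pair that differed in endothelial markers.

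Of 9 myogenic regulators 5 passed the filter. With shYEATS2 in YT 1 of them rose, MET, the receptor that muscle precursors need for migration, from 30.1 and 25.5 CPM to 96.5 and 79.4 CPM (1.66 ± 0.272, edgeR adjusted p = 0.00163), so 1 of 5 was called beside 20.7% of all genes. Of the listed myogenic factors, MYOD1 was at no more than 0.592 CPM and MYOG at no more than 0.291 CPM. MYF5 and MYF6 were at 0 CPM in all groups.

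Across the 12 libraries SIX2 was most like RHOBTB2 (Pearson r of log2 CPM 0.97), CENPT (0.96), ATRIP (0.95), FGD3 (0.95) and CFAP119 (0.94), among the 13258 genes that averaged 50 counts or more. EYA4 was most like AKAP6, MAP2 (0.96 each) and PRKCA (0.95), EYA2 most like ODC1 (0.96), EYA3 most like FCGR2A (0.95) and EYA1 most like CNPY2 (0.94). SIX5 was most like PRR14 (0.96) and SIX4 most like MARCHF6 (0.94). Within the family, SIX4 and EYA1 had an r of 0.74 and SIX2 and SIX5 of 0.74, whereas EYA2 and EYA4 had an r of -0.72; with the GC trend removed these were 0.70, 0.59 and -0.69. The libraries share groups and GC trends, so these values are descriptions.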

How the data were processed

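Stranded poly(A) RNA-seq was read from the whole-number counts per gene that the authors deposited for 12 libraries (human, hg38, Ensembl identifiers); per the methods of the study, reads went through bcbio-nextgen with HISAT2 and Salmon, and which of them gave the counts was not given in the sources used here. The table of the series and the per-library files held identical counts. Groups came from the labels, which call replicates separate samples; p-values measure the spread between these samples. The 18415 genes averaging 5 or more counts per library, a filter as in the study, were fitted with edgeR 4.0.16 in R 4.3.3 (TMM, robust quasi-likelihood, 6 groups, 11 contrasts), Benjamini-Hochberg over all genes tested and called at adjusted p under 0.05. CPM are TMM-normalised; CPM per kb uses exon lengths of GENCODE 44, which held 99.1% of the identifiers. The GC trend was removed by a loess fit of log2 CPM deviations on transcript GC (span 0.3). Alternatives were other scalings, no filter, the contrast groups alone, DESeq2 1.42.0, GC offsets, a replicate block and each library left out. The fit recovered seeded changes in simulated counts. The members and gene lists were chosen with earlier results of these data known. Named genes are the members, hairpin targets, overlapping and adjoining genes, the most similar patterns, and called genes of the lists, at most 4 per list. Replicates differed beyond sampling noise, and totals limit precision for counts near 0 (floor of 3 counts, counting error only). Some results are not reported here.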

Additional observations from a re-analysis of the deposited data

Results flagged for a closer look

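SIX2 was the 1 member called in a test of whether the response to a hairpin differed between the lines. That test subtracts the shNT difference that chose SIX2, so its outcome is a description and not a finding. The shZZZ3 effect on SIX2 was higher in YT than in TC by 2.60 on the log2 scale (SE 0.667, edgeR adjusted p = 0.0375), with 2.04 ± 0.526 in YT and -0.55 ± 0.404 in TC. The shNT libraries of both lines are those in which SIX2 was chosen for its large difference, so the value is not independent of the choice. The adjusted p was 0.0577 when the 4 groups were fitted alone, and the call was lost without TC shNT replicate 1 (0.0773), TC shZZZ3 replicate 1 (0.0950), TC shZZZ3 replicate 2 (0.146), YT shNT replicate 1 (0.141), YT shNT replicate 2 (0.154) or YT shZZZ3 replicate 1 (0.101).

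The same test passed for other genes named here. With shYEATS2 the response in YT minus that in TC, on the log2 scale in edgeR, was 2.42 for SOBP, -6.87 for WT1, 1.77 for PAX9, 1.89 for MET, 3.64 for TARID and -3.93 for RET. It was -4.12 for PAX7 and -5.36 for DACH1, values that depend on the prior count because both libraries of 1 group held 0 counts. RET was near 0 in TC shNT (0.0620 ± 0.0202 CPM, mean ± SD) and in YT shYEATS2 (0.0516 ± 0.0730 CPM). Its TC shYEATS2 libraries were at 0.682 ± 0.680 CPM, and without TC shYEATS2 replicate 1 the RET value was -2.42. Among the markers the response difference was 1.78 for VIM, 1.20 for COL1A2, -1.26 for PDGFRB and -2.75 for DES. With shZZZ3 it was 1.12 for SOBP, -3.58 for WT1, 3.18 for TARID, -2.74 for DACH1, 1.30 for VIM, 2.11 for COL1A1 and 3.97 for PECAM1. The calls for SOBP, WT1, DACH1 and VIM with shYEATS2 and for PECAM1 with shZZZ3 held in all 16 alternatives, leave-one-out included. Each of the others was lost in at least 1. The losses ran from 1 of 16 for COL1A1 with shZZZ3 to 9 for WT1 with shZZZ3. SOBP and TARID with shZZZ3 were lost in 8 each. VIM with shZZZ3 and PDGFRB with shYEATS2 were lost in 7 each, and RET with shYEATS2 in 6. The adjusted p ranged from 0.00038 (SOBP, shYEATS2) to 0.0478 (PDGFRB).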

How the results depend on the processing

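The counts of members called moved by over 1.5 times as follows, and the cause was not tested. YT shNT vs TC shNT went from 1 to 2 with no filter on low counts, the replicate block, GC offsets, both together, or DESeq2. TC shZZZ3 vs TC shNT went from 0 to 1 with GC offsets, with or without the block. YT shYEATS2 vs YT shNT went from 2 to 5 with GC offsets and to 6 with block and GC offsets or with the contrast groups only. YT shZZZ3 vs YT shNT went from 1 to 2 with no filter or DESeq2 and to 3 with GC offsets, with or without the block. TC shYEATS2 vs TC shZZZ3 went from 0 to 1 with block and GC offsets. Smaller moves were from 4 to 3 for YT shYEATS2 vs TC shYEATS2 with library totals or no filter and to 5 with GC offsets, with or without the block, from 3 to 2 for YT shYEATS2 vs YT shZZZ3 with library totals, and from 2 to 3 for YT shYEATS2 vs YT shNT with library totals, the block or DESeq2. The line difference in the shYEATS2 response went from 0 to 1 with no filter or DESeq2 and to 4 with GC offsets, with or without the block, and that in the shZZZ3 response from 1 to 0 with the contrast groups only. Leaving out 1 library gave 1 to 4 members for YT shNT vs TC shNT, 1 to 3 for YT shYEATS2 vs TC shYEATS2, 0 to 1 for TC shZZZ3 vs TC shNT, YT shZZZ3 vs YT shNT and the shZZZ3 response difference, 0 to 2 for the shYEATS2 response difference, and 1 for YT shYEATS2 vs YT shNT and YT shYEATS2 vs YT shZZZ3.

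Some member values that passed no test turned sign. With GC offsets EYA1 was -0.12 in YT shNT vs TC shNT (-0.11 with the block too), SIX5 was 0.002 in YT shYEATS2 vs TC shYEATS2 and EYA4 was 0.021 in YT shZZZ3 vs YT shNT, with or without the block. With no filter SIX5 was -0.005 in TC shYEATS2 vs TC shNT and EYA2 was 0.046 in the shZZZ3 response difference, where the contrast groups only gave 0.002. Without 1 library the ranges of such values were as follows. In YT shNT vs TC shNT SIX4 -0.56 to 0.12 and EYA1 -0.30 to 0.43. In YT shZZZ3 vs TC shZZZ3 SIX4 -0.032 to 0.68 and SIX5 -0.47 to 0.23. In TC shYEATS2 vs TC shNT SIX2 -0.093 to 0.90, SIX4 -0.71 to 0.30, SIX5 -0.34 to 0.46 and EYA1 -0.51 to 0.21. In TC shZZZ3 vs TC shNT SIX5 -0.59 to 0.22, EYA1 -0.41 to 0.32 and EYA4 -0.12 to 0.69. In YT shZZZ3 vs YT shNT SIX4 -0.32 to 0.40, SIX5 -0.070 to 0.63 and EYA4 -0.26 to 0.015. In TC shYEATS2 vs TC shZZZ3 SIX4 -0.16 to 0.85, EYA1 -0.30 to 0.077 and EYA4 -0.16 to 0.48. In YT shYEATS2 vs YT shZZZ3 SIX5 -0.12 to 0.57. In the line difference in the shZZZ3 response EYA2 -0.50 to 0.38. Of the markers, KDR passed the test in YT shYEATS2 vs TC shYEATS2 and ran from -3.37 without TC shYEATS2 replicate 1 to 0.003 without TC shYEATS2 replicate 2.

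The replicate numbers were not shown to pair the samples: 7 of 15 pairs of groups had correlated deviations over 0.1, the range being -0.44 to 0.90. Counts over all genes depended on the processing: TC shYEATS2 vs TC shNT had 8 genes called, 213 with no filter, 28 with the block, 57 with GC offsets, 116 with both, 4 with the contrast groups only and 119 with DESeq2. YT shNT vs TC shNT had 1699, 2710 with no filter, 3391 with GC offsets, 4139 with block and GC offsets and 941 with the contrast groups only. YT shYEATS2 vs TC shYEATS2 had 2242, 4503 with GC offsets and 5264 with block and GC offsets. YT shZZZ3 vs TC shZZZ3 had 482, 1214 with no filter, 1075 with GC offsets, 1403 with block and GC offsets and 789 with DESeq2. TC shZZZ3 vs TC shNT had 281, 744 with no filter, 678 with GC offsets, 950 with block and GC offsets, 157 with the contrast groups only and 531 with DESeq2. YT shYEATS2 vs YT shNT had 3821, 5827 with GC offsets, 6609 with block and GC offsets and 8719 with the contrast groups only. YT shZZZ3 vs YT shNT had 1846, 3801 with GC offsets and 4505 with block and GC offsets. TC shYEATS2 vs TC shZZZ3 had 221, 751 with no filter, 664 with GC offsets, 916 with block and GC offsets, 42 with the contrast groups only and 492 with DESeq2. YT shYEATS2 vs YT shZZZ3 had 1327, 2322 with no filter, 2989 with GC offsets and 3631 with block and GC offsets. The line difference in the shYEATS2 response had 1725, 2611 with no filter, 3702 with GC offsets and 4417 with block and GC offsets. The line difference in the shZZZ3 response had 795, 1549 with no filter, 1982 with GC offsets, 2542 with block and GC offsets and 1274 with DESeq2. Leaving out 1 library gave 486 to 3108 for YT shNT vs TC shNT, 857 to 2110 for YT shYEATS2 vs TC shYEATS2, 101 to 349 for YT shZZZ3 vs TC shZZZ3, 2 to 77 for TC shYEATS2 vs TC shNT, 50 to 152 for TC shZZZ3 vs TC shNT, 1527 to 1654 for YT shYEATS2 vs YT shNT, 514 to 1545 for YT shZZZ3 vs YT shNT, 29 to 400 for TC shYEATS2 vs TC shZZZ3, 363 to 1178 for YT shYEATS2 vs YT shZZZ3, 787 to 3023 for the line difference in the shYEATS2 response and 204 to 1012 for the line difference in the shZZZ3 response.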
